A study of Mus musculus with 11 samples.

Results

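The AP-1 subunits and other immediate early genes were followed in LSKs, the Lin-Sca1+ Kit+ fraction of bone marrow that holds hematopoietic stem and early progenitor cells. The 10 genes were *Fos*, *Fosb*, *Jun*, *Junb*, *Jund*, *Egr1*, *Ier2*, *Dusp1*, *Nr4a1*, and *Zfp36*, out of 12647 genes in the count table. They were chosen by gene symbol after *Fos* had been seen to be much lower in p53-/- LSKs, so the comparison of p53-/- with p53+/+ LSKs is given below for them as a description, with no p-value. All 10 were in the table and all 10 passed the filter on low counts, as did 12625 of the 12647 genes.

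RNA was sequenced from LSKs of p53+/+, p53R248W/+, and p53-/- mice, with 3 libraries per genotype and 9 in all. The p53+/+ mice are HUPKI mice, a humanized knock-in line, p53R248W/+ mice carry 1 allele with the R248W change of the DNA-binding domain, and p53-/- mice lack p53. The study describes a backcross to C57BL/6 for the p53+/+ and p53R248W/+ mice and names none for the p53-/- mice. It describes its mice as young and tumor free, with no treatment named for these libraries. The labels do not say whether the 3 libraries of a genotype came from separate mice, so the p-values below measure the spread between libraries, which may in part be technical. The H3K27me3 ChIP-seq samples of the series were not analysed here.

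Immediate early genes are transcribed within minutes of a signal, from factors already present in the cell, and their mRNAs are short-lived. Growth factor and stress signals reach them through MAP kinases, which act on ternary complex factors and serum response factor at CArG boxes and on CREB at cAMP response elements. FOS and JUN proteins pair to form AP-1, which binds DNA and regulates further genes, while DUSP1 and ZFP36 are induced with them and dampen the response. In blood-forming cells this set is widely known to be induced by tissue dissociation and flow sorting, so it can record handling of the cells as well as their state in the marrow.

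Because the 10 genes are known as a co-regulated set, their promoters were searched for the elements named above, in RefSeq sequences of build GRCm38.p6, which is the sequence of mm10. A promoter ran from 250 bases before to 50 bases after a transcription start, 300 bases in all. Promoters on chromosome 18, where *Egr1* lies, were left out of the search and of all shares below, and *Ier2* had no entry. This left promoters of 8 of the 10 genes. The motifs were the CArG box, the full cAMP response element TGACGTCA, the AP-1 site TGANTCA, the GC box GGGCGG, and the 8-base AP-1-like form TGACNTCA. Both strands were read. The full cAMP response element is one case of the 8-base form, so a match to the first is also a match to the second.

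In these 300 bases a CArG box was found in 1 of the 8 promoters, that of *Zfp36*, and in 1.63% of all 32851 promoters. The full cAMP response element was found in 1 of 8, that of *Dusp1*, and in 1.79% of all promoters. The 8-base form was found in *Jun* and *Dusp1* and in 8.83% of all promoters. The AP-1 site was found in 0 of 8 and in 7.81% of all promoters. GC boxes were found in 6 of 8, those of *Fos*, *Fosb*, *Jun*, *Dusp1*, *Nr4a1*, and *Zfp36*, and in 35.7% of all promoters. The promoters of *Junb* and *Jund* held none of these letters in this window. With the window reaching 500 bases before the start, CArG boxes were also found in *Fos* and *Fosb*, which made 3 of 8 against 2.91% of all promoters. An AP-1 site then appeared in *Fos*, and in 13.8% of all promoters. This longer window and the 8-base form were added after the shorter promoters had been seen. A match is a description of letters and not evidence of binding.

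The matches that set these genes apart from most promoters are shown with 10 bases on each side, 5′ to 3′ on the strand of the gene, with the motif in capitals. The CArG box of *Fos* began 309 bases before the start, that of *Fosb* 272 bases before it, and that of *Zfp36* 58 bases before it. The cAMP response element of *Dusp1* began 143 bases before its start, and the AP-1-like motif of *Jun* 45 bases before its start. All 5 lie upstream of the first exon.
Fos, chr12:85473571-85473600, plus strand: cacaggatgtCCATATTAGGacatctgcgt
Fosb, chr7:19310298-19310327, minus strand: tggccgagctCCTTATATGGctaattgcgt
Zfp36, chr7:28379267-28379296, minus strand: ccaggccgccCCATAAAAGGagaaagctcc
Dusp1, chr17:26508598-26508625, minus strand: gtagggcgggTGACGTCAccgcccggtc
Jun, chr4:95052250-95052277, minus strand: agcctcggggTGACATCAtgggctattt

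The 300-base promoters of *Fos*, *Jun*, and *Zfp36* are shown whole, since these 3 genes had the most separated levels in the comparisons below. *Fos* (NCBI gene 14281) lies at chr12:85473890-85477274, *Jun* (gene 16476) at chr4:95049036-95052222, and *Zfp36* (gene 22695) at chr7:28376784-28379228. The last 50 bases of each promoter are the start of the transcript. Capitals mark every match to the motifs listed above. A GC box on the opposite strand reads CCGCCC, and the GC box and the CArG box of *Zfp36* share 1 base.
Fos, chr12:85473640-85473939, plus strand: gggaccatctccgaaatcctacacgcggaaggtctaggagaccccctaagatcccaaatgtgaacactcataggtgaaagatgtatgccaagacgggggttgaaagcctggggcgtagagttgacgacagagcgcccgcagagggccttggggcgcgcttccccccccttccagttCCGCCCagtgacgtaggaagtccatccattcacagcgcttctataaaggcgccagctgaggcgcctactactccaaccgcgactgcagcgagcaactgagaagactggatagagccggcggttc
Jun, chr4:95052173-95052472, minus strand: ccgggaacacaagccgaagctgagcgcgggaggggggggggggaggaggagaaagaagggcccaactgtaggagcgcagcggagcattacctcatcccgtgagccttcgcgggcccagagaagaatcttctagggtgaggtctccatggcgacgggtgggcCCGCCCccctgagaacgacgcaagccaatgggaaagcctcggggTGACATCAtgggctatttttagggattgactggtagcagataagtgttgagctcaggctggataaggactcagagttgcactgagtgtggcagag
Zfp36, chr7:28379179-28379478, minus strand: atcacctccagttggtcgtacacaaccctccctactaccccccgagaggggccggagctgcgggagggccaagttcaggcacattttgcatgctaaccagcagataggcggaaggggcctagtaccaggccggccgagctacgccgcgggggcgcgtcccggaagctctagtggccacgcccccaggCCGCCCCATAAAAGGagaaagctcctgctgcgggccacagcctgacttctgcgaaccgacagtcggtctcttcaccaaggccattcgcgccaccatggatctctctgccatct

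Values per gene are CPM, that is counts scaled to a common library size, with library sizes adjusted by the TMM method. Library totals ranged from 18021375 to 29750702 counts, with p53R248W/+ replicate 1 the deepest, so that 1 count was worth 0.0359 to 0.0558 CPM and even *Fosb*, the lowest of the 10 genes, had at least 47 counts in a library. *Cdkn1a*, a direct p53 target, stood at 67.0, 44.0, and 43.6 CPM in p53+/+ replicates 1 to 3, at 52.1, 37.7, and 35.7 CPM in p53R248W/+, and at 17.8, 8.27, and 10.9 CPM in p53-/-. All 12 LSK markers were detected in every library, with summed levels of 3919 to 5467 CPM.

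Some properties of the libraries run alongside the genotypes. The Y-linked gene *Ddx3y* stood at 33.6 CPM in p53+/+ replicate 2 and at 25.1 and 64.9 CPM in p53R248W/+ replicates 2 and 3, at 0.112 CPM or less in the other libraries of these genotypes, and at 0 counts in all 3 p53-/- libraries. *Xist*, which is expressed from the inactive X chromosome of females, stood at 64.95 CPM in p53+/+ replicate 2, at 149 and 6.26 CPM in p53R248W/+ replicates 2 and 3, and at 116 to 283 CPM in the other 6 libraries. Replicate 2 of p53+/+ and of p53R248W/+ thus held counts of both *Xist* and *Ddx3y*, and the labels do not say whether they hold cells of more than 1 mouse. The summed level of 12 granulocyte and monocyte markers ranged from 3006 to 7683 CPM in p53+/+, from 4446 to 9477 CPM in p53R248W/+, and from 2211 to 2627 CPM in p53-/-. The highest library of this list was replicate 2 in both p53+/+ and p53R248W/+, where *S100a8* stood at 799 and 548 CPM against 44.3 CPM or less elsewhere. Summed T and NK lymphoid markers ranged from 326 to 340 CPM in p53+/+, from 335 to 425 CPM in p53R248W/+, and from 210.5 to 281 CPM in p53-/-, and summed erythroid markers stood at 1301 to 1656 CPM in p53-/- against 772 to 985 CPM in the other genotypes. The T and NK sum was mostly *Nkg7*, at 308 to 328 CPM in p53+/+ and at 197 to 267 CPM in p53-/-. Of the 6 T and NK markers, *Klrb1c* had a log2 fold change above 0, at 0.96, for p53-/- against p53+/+, and 5 were below 0. The erythroid sum was mostly *Car2*, and 5 of the 8 erythroid markers had a log2 fold change below 0 for p53-/- against p53+/+, with a median of −0.29. The part of these other cells in the levels of the immediate early genes was not tested. Library names in the labels follow patterns that p53+/+ and p53R248W/+ share by replicate number, and a pattern of their own in p53-/-, so anything that went with that naming cannot be told apart from the p53-/- genotype.

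*Fos* was the most abundant of the 10 genes per kilobase in p53+/+ LSKs and stood in the middle of their order in p53-/- LSKs. Levels between genes are compared as RPKM, the CPM value divided by the deposited gene length in kilobases. In p53+/+ LSKs the mean levels were 409 ± 253 RPKM for *Fos* (SD, n = 3, as for the levels that follow), 314 ± 180 RPKM for *Zfp36*, 261 ± 186 RPKM for *Dusp1*, 223 ± 63.1 RPKM for *Jun*, and 209 ± 61.0 RPKM for *Ier2*. The gaps between these 5 genes were smaller than the SD of *Fos*. *Junb*, *Egr1*, and *Jund* followed at 97.9 ± 30.9, 91.0 ± 63.8, and 82.7 ± 46.8 RPKM, again closer to each other than their SDs. *Nr4a1* at 18.6 ± 16.6 RPKM and *Fosb* at 4.92 ± 4.40 RPKM were lowest.

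In p53-/- LSKs the order began with *Ier2* at 134 ± 36.0 RPKM. *Zfp36* followed at 78.2 ± 13.4, *Jun* at 65.2 ± 14.4, *Dusp1* at 58.8 ± 13.2, *Junb* at 45.0 ± 9.72, *Fos* at 42.4 ± 5.21, and *Jund* at 35.7 ± 5.20 RPKM. *Egr1* stood at 26.6 ± 6.11, *Nr4a1* at 4.50 ± 1.19, and *Fosb* at 0.846 ± 0.206 RPKM. *Ier2* was above *Zfp36* by more than the sum of their SDs, while from *Zfp36* down to *Egr1* each gene differed from the next by less than the sum of the SDs of the pair. In p53R248W/+ LSKs *Fos* was again first, at 552 ± 439 RPKM, followed by *Dusp1* at 411 ± 418 RPKM and *Zfp36* at 319 ± 182 RPKM.

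**Figure D1:**
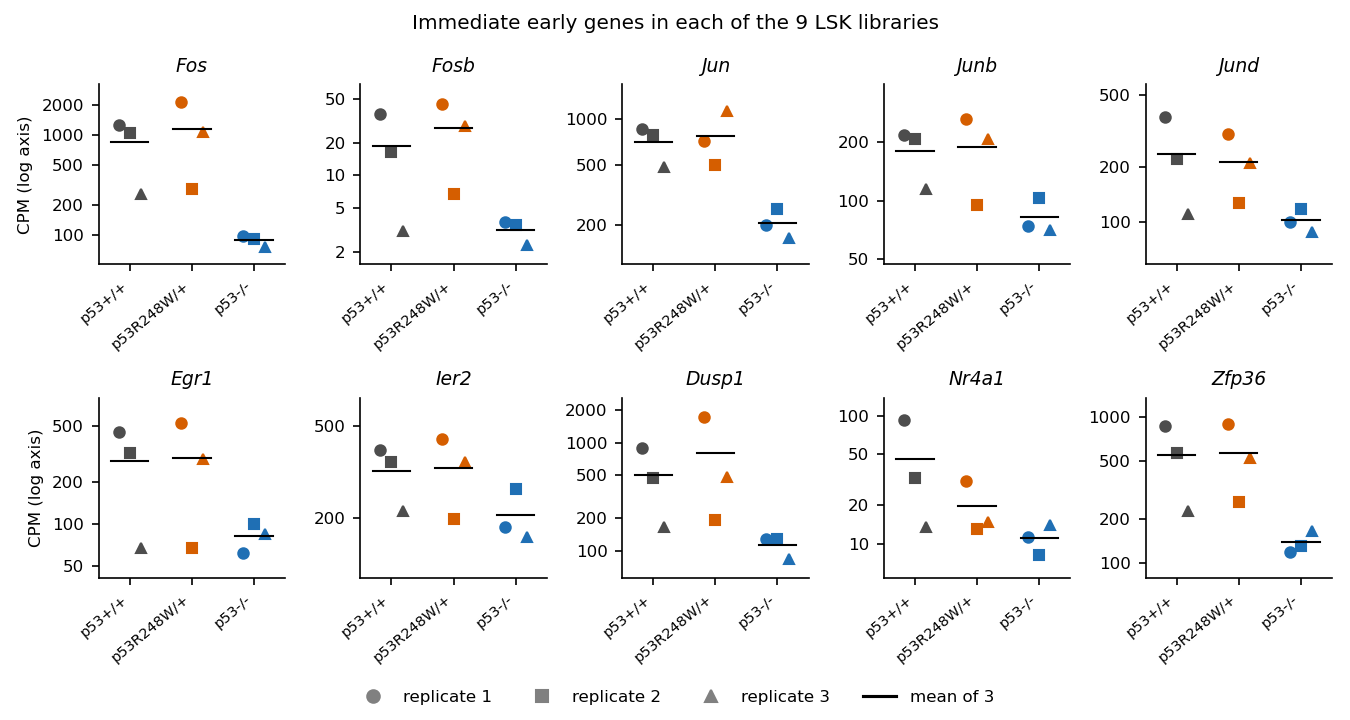
CPM of the 10 genes (log axis, a different range in each panel) in the 3 libraries of each genotype, with symbols for the replicate number and a bar for the mean of 3. The p53-/- libraries lie close together and low for most genes, while the p53+/+ and p53R248W/+ libraries spread widely, with p53+/+ replicate 3 and p53R248W/+ replicate 2 the lowest of their genotypes in each panel.

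*Fos*, of the FOS family of AP-1 subunits, had the widest range of the 10 genes. It stood at 1267, 1043, and 259 CPM in p53+/+ replicates 1 to 3, at 2118, 288, and 1060 CPM in p53R248W/+, and at 98.0, 91.7, and 76.7 CPM in p53-/-. Every p53-/- library was below every other library, while 1 library each of p53+/+ and p53R248W/+ sat well under the other libraries of its genotype. The means were 856 ± 529 CPM in p53+/+, 1156 ± 919 CPM in p53R248W/+, and 88.8 ± 10.9 CPM in p53-/- (SD, n = 3), and the p53-/- mean was 9.64-fold below that of p53+/+.

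*Fosb*, a second FOS protein, stood at 36.2, 16.4, and 3.12 CPM in p53+/+, at 45.4, 6.74, and 28.7 CPM in p53R248W/+, and at 3.75, 3.52, and 2.31 CPM in p53-/-. Here p53+/+ replicate 3 lay within the range of the p53-/- libraries, and the p53R248W/+ libraries lay above it.

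Among the JUN family, the partners of FOS proteins, *Jun* was the most separated. *Jun* stood at 863, 786, and 483 CPM in p53+/+, at 717, 496, and 1131 CPM in p53R248W/+, and at 200.1, 256.7, and 166 CPM in p53-/-. The p53-/- libraries did not overlap with either other genotype, and the lowest other library was 1.88 times the highest p53-/- library.

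*Junb*, a JUN protein that restrains proliferation in myeloid cells, stood at 218, 207, and 115 CPM in p53+/+, at 265, 95.6, and 208 CPM in p53R248W/+, and at 74.4, 103, and 70.8 CPM in p53-/-. The p53-/- libraries lay under all p53+/+ libraries, and p53R248W/+ replicate 2 fell inside their range. *Jund*, whose mRNA is expressed more constantly than those of the other JUN genes, stood at 379, 224, and 111 CPM in p53+/+, at 306, 128, and 211 CPM in p53R248W/+, and at 101, 118, and 88.6 CPM in p53-/-. For *Jund* it was p53+/+ replicate 3 that fell inside the p53-/- range.

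*Egr1*, a zinc finger transcription factor that restrains division and migration of stem cells, stood at 453, 319, and 66.8 CPM in p53+/+, at 527, 67.1, and 290.4 CPM in p53R248W/+, and at 61.6, 98.8, and 84.5 CPM in p53-/-. The lowest library of p53+/+ and that of p53R248W/+ both lay inside the p53-/- range, so the 3 genotypes overlapped. *Nr4a1*, an orphan nuclear receptor, stood at 92.3, 32.6, and 13.5 CPM in p53+/+, at 31.2, 13.0, and 14.9 CPM in p53R248W/+, and at 11.3, 8.13, and 14.0 CPM in p53-/-. Only p53+/+ replicate 1 stood far above the rest for *Nr4a1*. *Ier2*, a nuclear protein induced with this set, stood at 392, 348, and 214 CPM in p53+/+, at 438, 197, and 349 CPM in p53R248W/+, and at 181, 267, and 165 CPM in p53-/-, with the smallest differences of the 10 genes between p53-/- and the other genotypes.

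The genes that limit the response included *Dusp1*, which encodes a phosphatase that inactivates MAP kinases. *Dusp1* stood at 886, 470.5, and 165 CPM in p53+/+, at 1720, 195, and 478 CPM in p53R248W/+, and at 129, 128, and 84.8 CPM in p53-/-. All p53-/- libraries were below the others, by a small margin from the lowest of each genotype. *Zfp36* encodes a protein that binds AU-rich mRNAs, *Fos* mRNA among them, and promotes their decay. *Zfp36* stood at 864, 570.1, and 227 CPM in p53+/+, at 902, 262, and 527 CPM in p53R248W/+, and at 118, 131, and 164 CPM in p53-/-, and the p53-/- libraries again did not overlap with the others.

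The comparison of p53-/- with p53+/+ LSKs, which was the one that chose these genes, is described here with no p-value for any of them. All 10 log2 fold changes were below 0, with a median of −1.89, beside a median of −0.00125 over all 12625 genes. The values were −3.27 ± 0.66 for *Fos* (standard error, as for the others), −2.54 ± 0.78 for *Fosb*, −2.15 ± 0.70 for *Dusp1*, −2.05 ± 0.58 for *Nr4a1*, and −2.00 ± 0.47 for *Zfp36*. They were −1.78 ± 0.68 for *Egr1*, −1.77 ± 0.31 for *Jun*, −1.21 ± 0.39 for *Jund*, −1.12 ± 0.35 for *Junb*, and −0.64 ± 0.31 for *Ier2*. *Jun* and *Ier2*, with a standard error of 0.31 each, were the most precisely measured, and *Fosb*, *Dusp1*, *Egr1*, and *Fos* varied most between libraries.

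In the fit over all genes, at an adjusted p of 0.05 from edgeR's quasi-likelihood test, the genes called lower in p53-/- included 3 of the 10, *Fos*, *Jun*, and *Zfp36*, beside 2.25% of all genes called lower and 1.25% called higher. In 5 of the 10 genes, *Fos*, *Jun*, *Junb*, *Dusp1*, and *Zfp36*, every p53-/- library was below every p53+/+ library, as in 16.0% of all genes. These counts describe the selection and are no evidence on the 10 genes, since *Fos* was chosen for this difference. The count of 3 was not stable to single libraries. It was 0 without p53+/+ replicate 2 or without any one of the p53-/- libraries, and 8 without p53R248W/+ replicate 1, a library that enters this comparison only through the shared estimate of the spread.

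Without the 3 libraries with Y-linked counts, the log2 fold change of *Fos* was −3.10, that of *Jun* −1.69, and that of *Zfp36* −1.98, close to the values over all libraries. Without the 2 libraries highest in granulocyte markers the count of genes called was 2, *Fos* and *Jun*. In bulk RNA of a sorted fraction, fewer cells with high levels and lower levels per cell cannot be told apart.

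**Figure D2:**
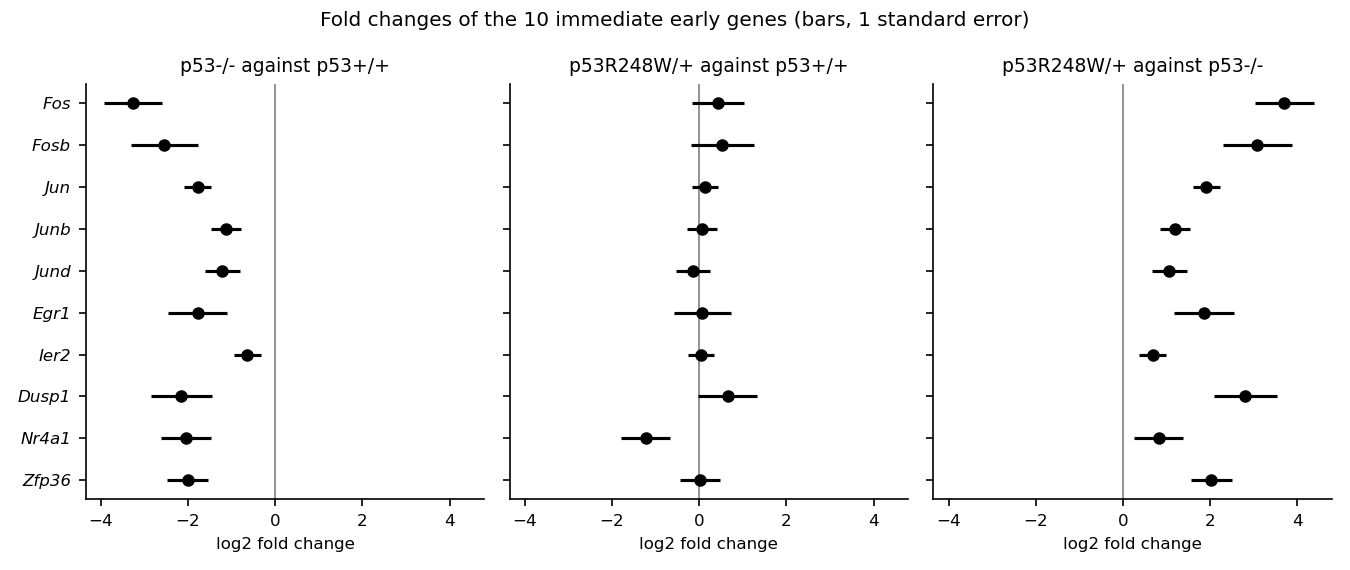
log2 fold changes of the 10 genes in the 3 comparisons, with bars of 1 standard error from the edgeR fit to all 9 libraries. All 10 lie below 0 for p53-/- against p53+/+ and above 0 for p53R248W/+ against p53-/-, and 8 of 10 lie above 0 for p53R248W/+ against p53+/+, mostly within 1 standard error of 0.

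Whether the heterozygous missense mutant moved the same genes was asked by comparing p53R248W/+ with p53+/+ LSKs, which uses the same p53+/+ libraries as the comparison above. None of the 10 genes was called in this comparison by edgeR, DESeq2, or limma-voom, and 1 of 10 had an unadjusted p under 0.05 in edgeR. Over all 12625 genes, 121 had an unadjusted p under 0.05 in edgeR in this comparison. Over all genes 0.00792% were called in either direction. The log2 fold changes were above 0 for 8 genes and below 0 for *Jund* and *Nr4a1*, with a median of 0.08 beside 0.01 over all genes. In 0 of the 10 genes were the libraries of the genotypes fully separated, as they were in 5.04% of all genes.

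The intervals were wide. The 95% interval of the log2 fold change ran from −0.89 to 1.76 around 0.43 for *Fos*, from −1.03 to 2.10 around 0.54 for *Fosb*, and from −0.82 to 2.12 around 0.65 for *Dusp1*. It ran from −0.52 to 0.79 around 0.14 for *Jun* and from −0.97 to 1.02 around 0.03 for *Zfp36*. The log2 fold change between p53-/- and p53+/+, taken as a fixed value, lay outside the interval for 9 of the 10 genes and inside it for *Nr4a1*. For *Ier2* it was just outside, at −0.638 against a lower bound of −0.622. Those values come from the comparison that chose the genes, have standard errors of their own, and share the p53+/+ libraries. The count of 9 is thus a description and no test of a difference between the 2 effects. Smaller differences in either direction could not be detected at this spread.

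*Nr4a1* was the gene with the unadjusted p under 0.05, with a log2 fold change of −1.23 ± 0.56, an unadjusted p of 0.0492, and an adjusted p of 1.00 from edgeR. Its difference rested on p53+/+ replicate 1, at 92.3 CPM, and without that library the log2 fold change was −0.22. The sign of each of the other 9 genes turned when some single library was left out, and none passed the threshold in any of these fits.

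The levels in p53R248W/+ LSKs were then set against those in p53-/- LSKs. This comparison shares the p53-/- libraries with the one that chose the genes, so it is no separate evidence on the p53-/- level, and *Fos* is given as a description. All 10 log2 fold changes were above 0, with a median of 1.88 beside 0.02 over all genes. Of all genes 2.34% were called higher and 1.10% lower in p53R248W/+, and of the 10 genes 3 were called higher, *Fos*, *Jun*, and *Zfp36*. In 6 of the 10 genes, *Fos*, *Fosb*, *Jun*, *Jund*, *Dusp1*, and *Zfp36*, every p53R248W/+ library was above every p53-/- library, as in 12.1% of all genes.

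*Fos* was 13.0-fold higher in p53R248W/+ than in p53-/-, a log2 fold change of 3.70 ± 0.67. *Jun* was 3.76-fold higher, with a log2 fold change of 1.91 ± 0.31 and an adjusted p of 0.0106 from edgeR, and higher in 3 of 3 libraries than every p53-/- library. *Zfp36* was 4.08-fold higher, with a log2 fold change of 2.03 ± 0.47 and an adjusted p of 0.0410 from edgeR, again higher in 3 of 3 libraries.

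*Fosb* and *Dusp1* did not pass the threshold although their log2 fold changes of 3.08 ± 0.79 and 2.80 ± 0.72 were larger than those of *Jun* and *Zfp36*, with edgeR adjusted p of 0.0559 and 0.0553. *Junb* had 1.19 ± 0.35 with an adjusted p of 0.0768 in edgeR, and *Jund* and *Egr1* both had an adjusted p of 0.147 in edgeR, at 1.07 ± 0.39 and 1.85 ± 0.68. *Ier2* and *Nr4a1* had the smallest values, 0.68 ± 0.31 and 0.82 ± 0.56, with edgeR adjusted p of 0.230 and 0.437.

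The call of *Jun* was lost only without p53-/- replicate 3, at an adjusted p of 0.0546 in edgeR with 1 library left out. The call of *Zfp36* was lost without p53+/+ replicate 2, without p53R248W/+ replicate 3, and without each p53-/- library, with an adjusted p of up to 0.136 in edgeR, and with limma-voom, at an adjusted p of 0.0583. limma-voom called 2 of the 10 genes in this comparison, *Fos* and *Jun*. Leaving out 1 library moved the count of genes called between 0, without p53-/- replicate 3, and 5, without p53R248W/+ replicate 2.

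Within p53+/+ and within p53R248W/+ the 10 genes varied together from library to library. In p53+/+ LSKs, replicate 1 was highest, replicate 2 in the middle, and replicate 3 lowest for 10 of the 10 genes, an order that 18.9% of all genes had. In p53R248W/+ LSKs, replicate 2 was lowest for 10 of 10, as for 26.9% of all genes, and replicate 1 was highest for 9, with replicate 3 highest for *Jun*. Both orders together held for 10 of 10 and for 7.75% of all genes. These genes share their libraries, so the 10 orders are not 10 separate observations.

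In p53-/- LSKs no such common order appeared, with replicate 3 lowest for 7 genes and replicate 2 highest for 5. The range of log2 CPM over the 3 libraries was smaller in p53-/- than in each other genotype for 10 of 10, as for 36.6% of all genes. For *Fos* the highest library was 4.89 times the lowest in p53+/+, 7.34 times in p53R248W/+, and 1.28 times in p53-/-. For *Fosb* these folds were 11.6, 6.73, and 1.63, and for *Egr1* 6.78, 7.86, and 1.60. For *Jun*, which had the smallest SD within genotypes of the 10 genes, they were 1.79, 2.28, and 1.55.

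**Figure D3:**
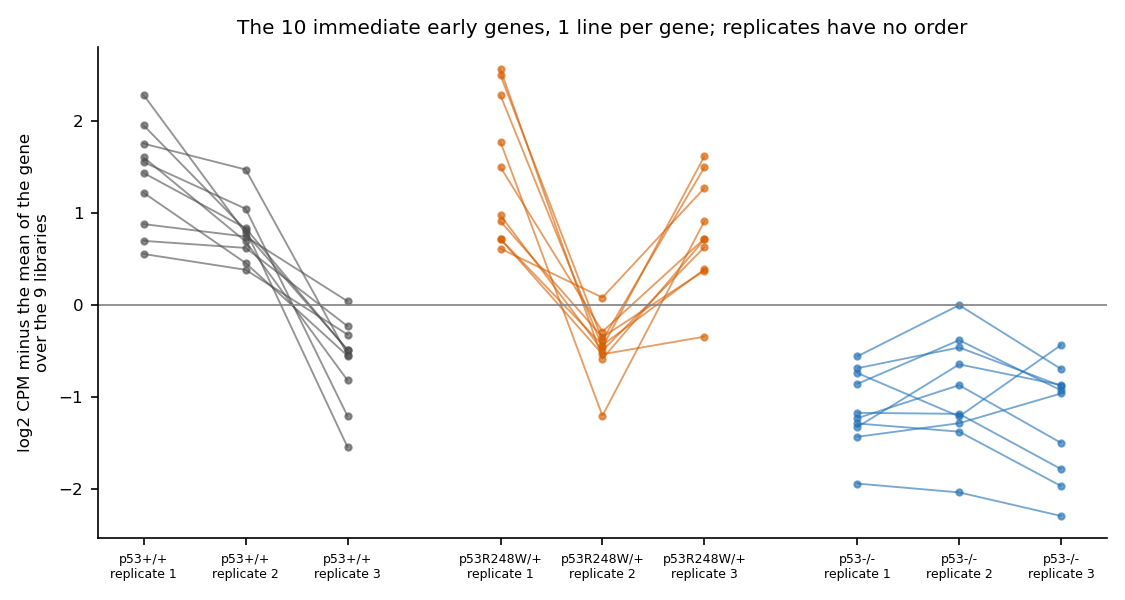
log2 CPM of each of the 10 genes minus its own mean over the 9 libraries, by library, with 1 line per gene within a genotype. Lines join replicates only to show that a gene is the same, and replicates have no order. The genes stand between 0.55 and 2.28 above their means in p53+/+ replicate 1, and every gene stands below its mean in all 3 p53-/- libraries.

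The mean log2 CPM of the 10 genes summarised each library. It was 8.51, 7.90, and 6.50 in p53+/+ replicates 1 to 3, 8.57, 6.65, and 7.89 in p53R248W/+, and 6.00, 6.17, and 5.89 in p53-/-. The lowest p53+/+ library was 0.33 above the highest p53-/- library on this scale, while the p53+/+ libraries spanned 2.01. The lowest libraries of p53+/+ and p53R248W/+ were thus closer to the p53-/- libraries than to the other libraries of their own genotype.

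The within-genotype SD of log2 CPM was 0.85 in the median over the 10 genes and 0.31 over all genes. It placed the members between percentile 76.1 of all genes, for *Jun*, and percentile 97.9, for *Fosb*. *Fos* had an SD of 1.11, *Egr1* of 1.24, and *Dusp1* of 1.17. The correlation of each gene with the mean of the other 9 genes over the 9 libraries lay between 0.778 for *Nr4a1* and 0.980 for *Zfp36*. After the genotype means had been subtracted it lay between 0.705 for *Jun* and 0.982 for *Fosb*. These are descriptions over 9 libraries that share genotype and depth, without a test.

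Of the libraries with Y-linked counts, p53+/+ replicate 2 and p53R248W/+ replicate 3 had mean log2 CPM of 7.90 and 7.89 and p53R248W/+ replicate 2 had 6.65. Of the 2 libraries highest in granulocyte markers, p53+/+ replicate 2 was high and p53R248W/+ replicate 2 low. The part of the time between marrow collection and lysis, or of sorting, was not tested, since the labels give neither.

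The 5 non-member genes whose log2 CPM ran most like the mean of the 10 genes over the 9 libraries were taken from 9785 genes with an average log2 CPM of at least 3. They were *Klf2* with r = 0.977, *Ccl4* with 0.963, *Vim* with 0.932, *Zdhhc20* with 0.928, and *H1fx* with 0.903. For *Fos* alone they were *Klf2* with r = 0.989, *Vim* with 0.946, *Ccl4* with 0.933, *Usp45* with 0.921, and *Nfkbid* with 0.911. *Klf2*, a Krüppel-like transcription factor, stood at 92.6, 55.1, and 17.6 CPM in p53+/+, at 190.3, 24.6, and 71.7 CPM in p53R248W/+, and at 10.2, 7.86, and 7.27 CPM in p53-/-. *Ccl4*, a chemokine, stood at 136, 97.4, and 34.5 CPM in p53+/+, at 184, 51.2, and 84.7 CPM in p53R248W/+, and at 32.1, 46.9, and 21.6 CPM in p53-/-. *Vim* ran in the same order with a small range, from 172 to 239.7 CPM over the 9 libraries.

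The other genes known as immediate early or early response genes were mixed in their differences between genotypes. Of 41 such genes listed, 37 were tested. For p53-/- against p53+/+ their median log2 fold change was −0.22, with 24 below 0 and 13 above. Of the 37, 2 were called higher and 1 lower, beside 1.25% and 2.25% of all genes. Within genotypes their summed level ran in the library order of the 10 genes, at 3917, 3115, and 2446 CPM in p53+/+ replicates 1 to 3 and at 3937, 2657, and 3081 CPM in p53R248W/+, and it stood at 3391, 3682, and 3086 CPM in p53-/-. *Klf6*, one of the genes with that order in p53+/+, stood at 260.5, 164, and 74.7 CPM there, at 442, 98.1, and 151 CPM in p53R248W/+, and at 196, 169, and 95.4 CPM in p53-/-. The summed level is weighted to abundant genes, and not every gene of the list had its order. *Myc* ran the other way, at 392, 492, and 568 CPM in p53+/+ replicates 1 to 3. In p53R248W/+ it stood at 356, 594, and 493 CPM, highest in replicate 2. *Klf10*, a TGF-beta-inducible Krüppel-like factor, rose by 1.27 ± 0.21 on the log2 scale, with an adjusted p of 0.0145 from edgeR. *Dusp6*, a phosphatase of ERK, rose by 1.06 ± 0.24, with an adjusted p of 0.0386 from edgeR. *Ppp1r15a*, which directs dephosphorylation of eIF2-alpha after stress, fell by 1.25 ± 0.30 on the log2 scale, with an adjusted p of 0.0431 from edgeR.

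*Klf10* stood at 142, 139, and 85.0 CPM in p53+/+, at 122, 126, and 113 CPM in p53R248W/+, and at 277, 337, and 269 CPM in p53-/-. *Dusp6* stood at 122, 67.9, and 61.6 CPM in p53+/+, at 80.3, 66.1, and 71.5 CPM in p53R248W/+, and at 168, 194, and 162 CPM in p53-/-. Both were thus higher in every p53-/- library than in any other library, the reverse of the placement of *Fos*. *Klf2* had a log2 fold change of −2.71 ± 0.68 and an adjusted p of 0.0506 from edgeR, just short of a call.

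For p53R248W/+ against p53-/-, which shares the p53-/- libraries, *Klf2* was called higher at 3.50 ± 0.70 with an adjusted p of 0.0253 from edgeR. *Klf10* and *Dusp6* were called lower at −1.29 ± 0.21 and −1.27 ± 0.24, with adjusted p of 0.00970 and 0.0224 from edgeR. The median over the 37 genes was 0.08. For p53R248W/+ against p53+/+ none of the 37 genes was called by edgeR, DESeq2, or limma-voom, with 2 at an unadjusted p under 0.05 in edgeR and a median of −0.02. Over all 12625 genes, 121 were at an unadjusted p under 0.05 in edgeR there.

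The remaining AP-1 partners included the FOS-related *Fosl2*, the BATF, JDP2, and ATF proteins, and the small MAF proteins. Of 12 listed, 10 were tested and 0 were called in any of the 3 comparisons by edgeR, DESeq2, or limma-voom, with 2, 0, and 2 at an unadjusted p under 0.05 in edgeR for p53-/- against p53+/+, p53R248W/+ against p53+/+, and p53R248W/+ against p53-/-. Their medians were 0.15, −0.04, and −0.25. Over all 12625 genes, 2950, 121, and 2657 had an unadjusted p under 0.05 in edgeR, in the same order of comparisons. *Atf3*, a stress-induced repressor singled out here after its values were seen, stood at 6.95, 1.20, and 0.167 CPM in p53+/+, at 7.29, 0.241, and 0.960 CPM in p53R248W/+, and at 0, 0.271, and 0.442 CPM in p53-/-. It followed the library order of the 10 genes in part, at levels of a few counts in the low libraries. *Batf* and *Fosl2* stood at 53.1 to 68.3 and 3.96 to 7.52 CPM in p53+/+ and at 65.8 to 108 and 5.30 to 10.3 CPM in p53-/-, with adjusted p of 0.213 and 0.405 from edgeR.

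The kinases and factors that carry signals to these promoters differed little in mRNA level. Of 27 such genes, among them *Srf*, *Elk1*, *Creb1*, and *Mapk3*, all 27 were tested and edgeR and limma-voom called 0 in any of the 3 comparisons. At an unadjusted p under 0.05 edgeR counted 4, 1, and 3 of the 27 genes in the order of comparisons given above. Over all 12625 genes these counts were 2950, 121, and 2657. DESeq2 called 1 of the 27 genes higher in p53-/- than in p53+/+. The log2 fold changes of the 27 genes for p53-/- against p53+/+ lay between −0.53 and 0.57. *Srf*, which encodes serum response factor, stood at 34.1, 40.1, and 46.0 CPM in p53+/+ and at 27.9, 31.6, and 43.8 CPM in p53-/-, which overlapped. These are mRNA levels and do not measure kinase activity.

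Heat shock and other genes that respond to dissociation of tissue were read beside the immediate early genes. Of 17 listed, 16 were tested. For p53-/- against p53+/+, 3 were called lower and 0 higher by edgeR, beside 2.25% and 1.25% of all genes, with a median of −0.23. DESeq2 called 5 lower and 2 higher, and limma-voom 2 lower and 0 higher. In 4 of the 16 genes every p53-/- library was below every p53+/+ library, as in 16.0% of all genes. In 2 of the 16 every p53-/- library was above every p53+/+ library, a placement not counted over all genes. *Dnajb4* had a log2 fold change of 0.98 ± 0.25 with an adjusted p of 0.0506 from edgeR. *Hspa1a*, the inducible HSP70, had a log2 fold change of −5.70 ± 1.30 and an adjusted p of 0.0393 from edgeR. *Hsp90aa1*, the inducible HSP90, fell by 0.97 ± 0.21 with an adjusted p of 0.0340 from edgeR. For p53R248W/+ against p53-/- 3 were called higher, beside 2.34% of all genes. Among them were *Hspa1a* at 5.32 ± 1.29 and *Hsp90aa1* at 1.05 ± 0.21, with adjusted p of 0.0457 and 0.0264 from edgeR. For p53R248W/+ against p53+/+ none of the 16 was called by edgeR, DESeq2, or limma-voom, and 0 had an unadjusted p under 0.05 in edgeR.

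The heat shock genes differed among themselves in library order. *Hspa1a* stood at 2.37, 34.2, and 99.4 CPM in p53+/+ replicates 1 to 3, at 4.60, 17.6, and 82.1 CPM in p53R248W/+, and at 0.707, 0.994, and 0.884 CPM in p53-/-. Its near-identical copy *Hspa1b*, with which it can share reads, stood at 1.96, 56.4, and 185 CPM, at 6.86, 31.7, and 150 CPM, and at 1.63, 2.94, and 0.589 CPM. In p53+/+ LSKs the library with the highest *Fos* had the lowest *Hspa1a* and the reverse, and in p53R248W/+ LSKs the highest *Fos* library also had the lowest *Hspa1a*. The p53-/- libraries were the lowest of the 9 for *Fos* and for *Hspa1a*, while for *Hspa1b* p53-/- replicate 2 stood above p53+/+ replicate 1.

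*Dnajb1* and *Dnajb4*, which encode co-chaperones of HSP70, ran in the library order of the immediate early genes within p53+/+ and p53R248W/+ and were highest in p53-/-. *Dnajb1* stood at 224, 193, and 179 CPM in p53+/+, at 241, 158, and 203 CPM in p53R248W/+, and at 351, 321, and 241 CPM in p53-/-, where the lowest library was level with the highest of p53R248W/+. *Dnajb4* stood at 35.5, 26.8, and 23.0 CPM in p53+/+, at 42.4, 23.9, and 26.1 CPM in p53R248W/+, and at 61.0, 50.8, and 57.0 CPM in p53-/-. *Hsp90aa1* stood at 521, 564, and 864 CPM in p53+/+, at 695, 734, and 629 CPM in p53R248W/+, and at 331, 388, and 276 CPM in p53-/-, with no overlap between p53-/- and the others. Whether handling of the cells had a part in the levels of the immediate early or heat shock genes was not tested.

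**Figure D4:**
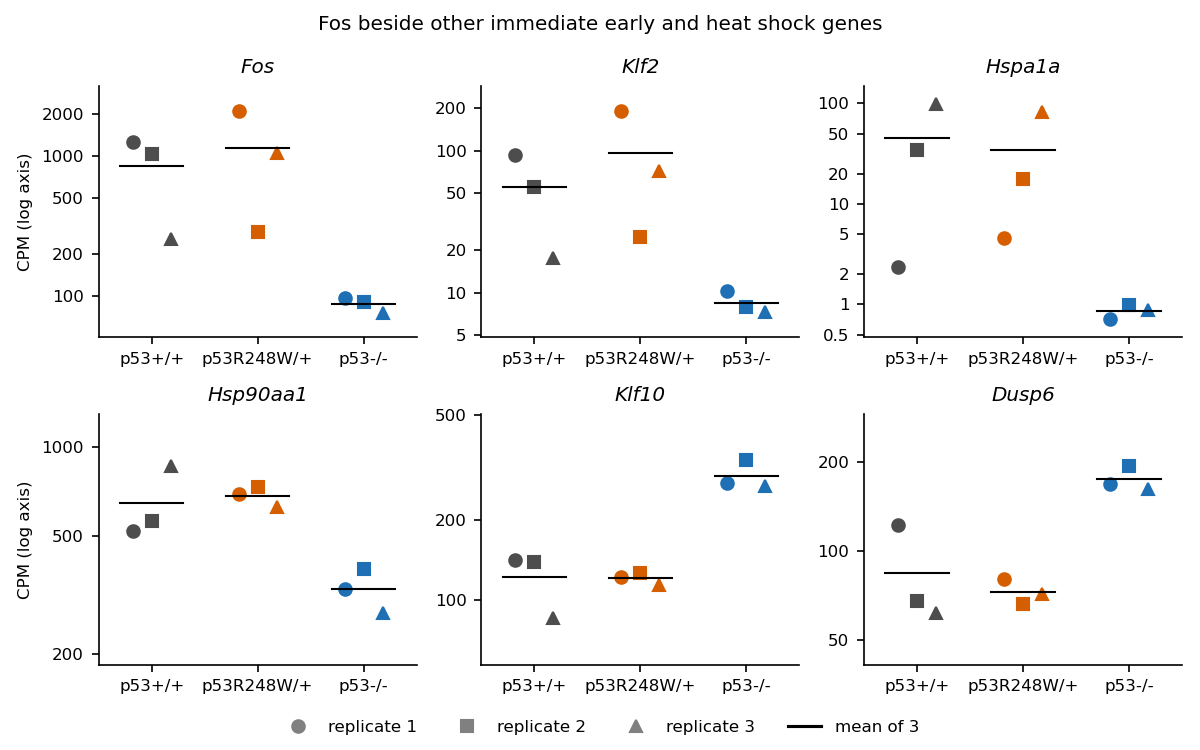
CPM (log axis, a different range in each panel) of *Fos*, of the other immediate early genes *Klf2*, *Klf10*, and *Dusp6*, and of the heat shock genes *Hspa1a* and *Hsp90aa1* in each library, with symbols for the replicate number and a bar for the mean of 3. *Klf2* runs in the order of *Fos*, *Hspa1a* is lowest in the p53+/+ and p53R248W/+ libraries where *Fos* is highest, and *Klf10* and *Dusp6* are highest in p53-/-.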

How the data were processed

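RNA-seq of LSKs was analysed for 9 libraries, 3 each of p53+/+, p53R248W/+, and p53-/-, grouped by the genotype in the labels. The methods describe RNA extraction with an RNeasy kit, oligo(dT) beads, fragmentation, and random hexamers, while the labels name the SMART-Seq v4 kit. The submitters' processing notes name STAR 2.5.2b, featureCounts, Subread 1.5.0, edgeR, and mm10, and the annotation and the strand setting are not given in the sources used here. The table deposited by the authors holds raw read counts of 12647 genes, each with at least 37 counts in total. The gene lengths deposited by the authors were used for RPKM only. The same table holds the authors' own fold changes and significance values for 3 genotype comparisons, which were not used.

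Genes were filtered with filterByExpr by genotype, which left 12625, scaled by TMM, and tested in 1 quasi-likelihood fit to the 9 libraries with edgeR 4.0.16 in R 4.3.3, with Benjamini-Hochberg adjustment over all genes tested and a threshold of 0.05. Log2 CPM values use a prior count of 2. DESeq2 1.42.0 and limma-voom (limma 3.58.1) were alternatives, along with other scaling and filters, a replicate block, fits to 6 libraries, and leaving out libraries. The scripts were tested on simulated data. Promoters came from RefSeq on GRCm38.p6 without chromosome 18, and all 32851 matched the genome of that build.

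The 10 genes and all gene lists (other AP-1, other immediate early, dissociation, and upstream genes, and markers of LSKs and of T, NK, B lymphoid, erythroid, megakaryocyte, granulocyte, and monocyte cells) were chosen with earlier results of these data known. Named are the 10 genes, up to 4 genes per list, comparison, and direction with the largest change among those past the threshold, the 5 genes most alike in pattern, and *Cdkn1a*. Some genes that this rule names are not reported here. Other genes named, such as *Atf3*, *Hspa1b*, *Srf*, *Batf*, *Fosl2*, *Dnajb1*, *Dnajb4*, *Klf6*, *Myc*, *S100a8*, *Xist*, and *Ddx3y*, were chosen after their values were seen.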

Additional observations from a re-analysis of the deposited data

How the results depend on the processing

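For p53-/- against p53+/+ and for p53R248W/+ against p53-/-, the log2 fold changes of all 10 genes kept their sign in every fit run, and calls moved. For p53-/- against p53+/+ the count of the 10 genes called was 3, and 6 with DESeq2, 7 in the fit to 6 libraries, 5 with the replicate block, and 0 to 8 with 1 library left out. All genes called were 442, and 1552 with DESeq2, 894 in the fit to 6 libraries, 882 with the replicate block, 59 without the 2 libraries highest in granulocyte markers, 264 without the 3 libraries with Y-linked counts, and 37 to 1485 with 1 library left out. The other immediate early genes called were 3, and 5 with DESeq2, 5 with the replicate block, 1 without the granulocyte-high libraries, and 0 to 5 with 1 library left out. For p53R248W/+ against p53-/- the 10 genes gave 3 calls, and 7 with DESeq2, 5 with the strict filter of 10 counts in every library, 5 with the replicate block, 6 without the granulocyte-high libraries, and 0 to 5 with 1 library left out. All genes called were 434, and 1325 with DESeq2, 208 in the fit to 6 libraries, 672 with the replicate block, 77 without the granulocyte-high libraries, 46 without the libraries with Y-linked counts, and 77 to 1559 with 1 library left out. The other immediate early genes gave 3 calls, and 6 with DESeq2, 1 without the libraries with Y-linked counts, and 0 to 4 with 1 library left out. For p53R248W/+ against p53+/+ 0 of the 10 genes were called in any fit, and all genes called were 1, and 6 with DESeq2, 0 with the strict filter, and 2 with the replicate block. There the signs were not stable, and with 1 library left out the log2 fold changes ranged from −0.36 to 0.89 for *Fos*, −0.088 to 1.46 for *Fosb*, −0.23 to 0.38 for *Jun*, −0.26 to 0.39 for *Junb*, −0.50 to 0.36 for *Jund*, −0.66 to 0.61 for *Egr1*, −0.23 to 0.31 for *Ier2*, −0.61 to 1.33 for *Dusp1*, and −0.50 to 0.50 for *Zfp36*. *Jund* was also at 0.063 without the granulocyte-high libraries and at 0.30 without those with Y-linked counts. The cause of these changes was not tested, beyond fewer libraries in the fits that leave some out. The 2 fits without granulocyte-high libraries and without Y-linked counts were chosen after seeing the data, and where they leave 1 library of a genotype it is assumed to vary like the other genotypes. Between p53+/+ and p53R248W/+ the correlation of same-numbered deviations from the genotype means was 0.361, 0.543, and 0.0388 for replicates 1 to 3. Between replicate 1 of one of these genotypes and replicate 2 of the other it was −0.476 and −0.385. Same-numbered correlations between p53+/+ and p53-/- were −0.0946 to 0.00567. Replicates 1 and 2 thus ran together by number in p53+/+ and p53R248W/+ but not with p53-/-, and the reason was not tested. The replicate block treats all 3 genotypes as paired, so it is given only here. The lowest count of any of the 10 genes in a library was 47. With limma-voom 2, 0, and 2 of the 10 genes were called for p53-/- against p53+/+, p53R248W/+ against p53+/+, and p53R248W/+ against p53-/-.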

Other observations

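Markers of cell types other than the immediate early genes were counted in the same fits. Among 12 LSK markers, edgeR called 1 higher and 0 lower in p53-/- against p53+/+, beside 1.25% and 2.25% of all genes. That was *Hlf*, a transcription factor of hematopoietic stem cells, at 1.14 ± 0.22 on the log2 scale with an adjusted p of 0.0242 from edgeR. Of the 12 log2 fold changes, 9 were above 0 and 3 below, *Slamf1* at −0.81 ± 0.41, *Cd48* at −0.52 ± 0.22, and *Flt3* at −0.24 ± 0.20. For p53R248W/+ against p53-/-, 9 of the 12 were below 0 and 3 above, and 3 were called lower, beside 1.10% of all genes. Among those called were *Hlf* at −1.41 ± 0.22 and *Meis1* at −0.74 ± 0.17, with adjusted p of 0.00885 and 0.0366 from edgeR. *Hlf* stood at 118 to 205 CPM in p53+/+, at 118 to 163 CPM in p53R248W/+, and at 351 to 418 CPM in p53-/-.

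Of 12 granulocyte and monocyte markers, 0 were called for p53-/- against p53+/+ by edgeR, where 5 had an unadjusted p under 0.05, and DESeq2 called 2 lower and limma-voom 0. In that comparison 2950 of all 12625 genes had an unadjusted p under 0.05 in edgeR. For p53R248W/+ against p53-/-, *Mpo*, a granule enzyme of myeloid progenitors, and *Ctsg* were called higher at 1.76 ± 0.26 and 1.58 ± 0.32, with adjusted p of 0.00778 and 0.0281 from edgeR. Of 8 erythroid markers tested, *Car2* rose in p53-/- against p53+/+ by 0.85 ± 0.17 with an adjusted p of 0.0289, and was called lower in p53R248W/+ against p53-/- at −0.82 ± 0.17 with an adjusted p of 0.0309, both from edgeR. Of 6 T and NK lymphoid markers tested, *Nkg7* was called higher in p53R248W/+ against p53-/- at 0.69 ± 0.17 with an adjusted p of 0.0479 from edgeR. edgeR called 0 of 8 megakaryocyte and 0 of 7 B lymphoid markers tested in any comparison, with 4, 1, and 1 and 2, 1, and 3 at an unadjusted p under 0.05 for p53-/- against p53+/+, p53R248W/+ against p53+/+, and p53R248W/+ against p53-/-. DESeq2 called 2, 1, and 0 megakaryocyte markers and 0, 0, and 2 B lymphoid markers there, and limma-voom called 0. Over all 12625 genes, edgeR counted 2950, 121, and 2657 at an unadjusted p under 0.05 in these comparisons. At the threshold it called 1.25% of all genes higher and 2.25% lower for p53-/- against p53+/+. The shares were 2.34% higher and 1.10% lower for p53R248W/+ against p53-/-.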
